A study of Mus musculus with 4 samples.

Results

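Collagen chain genes, the 44 genes of the deposited transcript table whose symbol has the form Col, a type number, a and a chain number, were described in CD301b macrophages and in F4/80-negative immune cells of mouse wound beds. They were 44 of 24358 gene symbols in the table and were covered by 54 transcripts. They were taken by the form of their symbol, and the family was chosen with earlier results of these data known. They were divided into 11 fibrillar genes, 6 basement membrane genes (type IV) and 27 genes of other types. Both populations were sorted by flow cytometry from the dermis of day 5 wound beds of 7-week-old male C57/Bl6 mice, and each was represented by 2 libraries. The first was macrophages that bear the C-type lectin CD301b. The second, against which it was compared, was immune cells without F4/80, the surface protein most used to mark mouse macrophages. Neither group carried a stated treatment or genetic change other than the wound. It is not stated whether libraries came from separate or pooled animals, and no macrophages without CD301b and no fibroblasts were included.

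A collagen is a trimer of alpha chains wound into a triple helix, and each chain is the product of its own gene. Fibrillar collagens form the cables that give dermis its strength, type IV collagen forms the sheet-like network of basement membranes, and the remaining types decorate fibrils, make beaded filaments or sit in membranes. In skin wounds the fibrillar chains are known chiefly as products of fibroblasts, and leukocytes are better known for binding, taking up and degrading collagen than for making it.

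Expression was available as 1 FPKM (sequenced fragments divided by transcript length and by the number mapped) for each transcript and population, so the spread between libraries could not be computed and no FPKM here has an error. FPKM is a value per length, so levels of different chains may be set beside each other. A gene was counted as lower or higher in CD301b macrophages when at least 1 of its transcripts passed a Benjamini-Hochberg adjusted p of 0.05, computed on the Cuffdiff p-values that the authors' deposited table gives, with none passing the opposite way and the gene's summed FPKM pointing in that direction. The depth of each library is unknown. All 8 macrophage markers examined (C1qa, C1qb, C1qc, Csf1r, Mrc1, Mertk, Cd68 and Apoe) were higher in CD301b macrophages. The gene of F4/80, Adgre1, was at 557 FPKM in CD301b macrophages and 151 FPKM in F4/80-negative cells, and so was not absent from the F4/80-negative sort. The gene of CD301b itself, Mgl2, went against the label, at 49.2 FPKM in CD301b macrophages and 103 FPKM in F4/80-negative cells.

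Collagen transcripts were abundant in both populations and were lower in CD301b macrophages wherever a difference passed the test. The 44 genes summed to 4492 FPKM in CD301b macrophages and 6614 FPKM in F4/80-negative cells, a 1.47-fold smaller sum in the macrophages. The macrophage value was the smaller in 43 of the 44 genes, whereas it was the smaller in 51.0% of all 18817 genes above 0. Of the 28 collagen genes tested, 12 were lower and 0 were higher in CD301b macrophages, by Cuffdiff in the authors' deposited table. Over all 13039 genes tested, 6.20% were lower and 11.0% were higher. At an unadjusted p of 0.05 in the authors' deposited table, 19 were lower and 0 were higher, where 12.6% of all tested genes were lower and 19.5% higher. With the highest transcript of each gene alone, 12 were lower and 0 higher, against 5.82% and 10.4% of all genes. With transcripts at 1 FPKM or more alone, 11 were lower and 0 higher, against 6.96% and 12.6%. The median log2 fold of the 44 genes on the log2(FPKM + 1) scale was -0.35, against 0.00 over all genes above 0. In sorted bulk RNA, fewer collagen-expressing cells and less collagen RNA in each cell cannot be told apart.

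**Figure D1:**
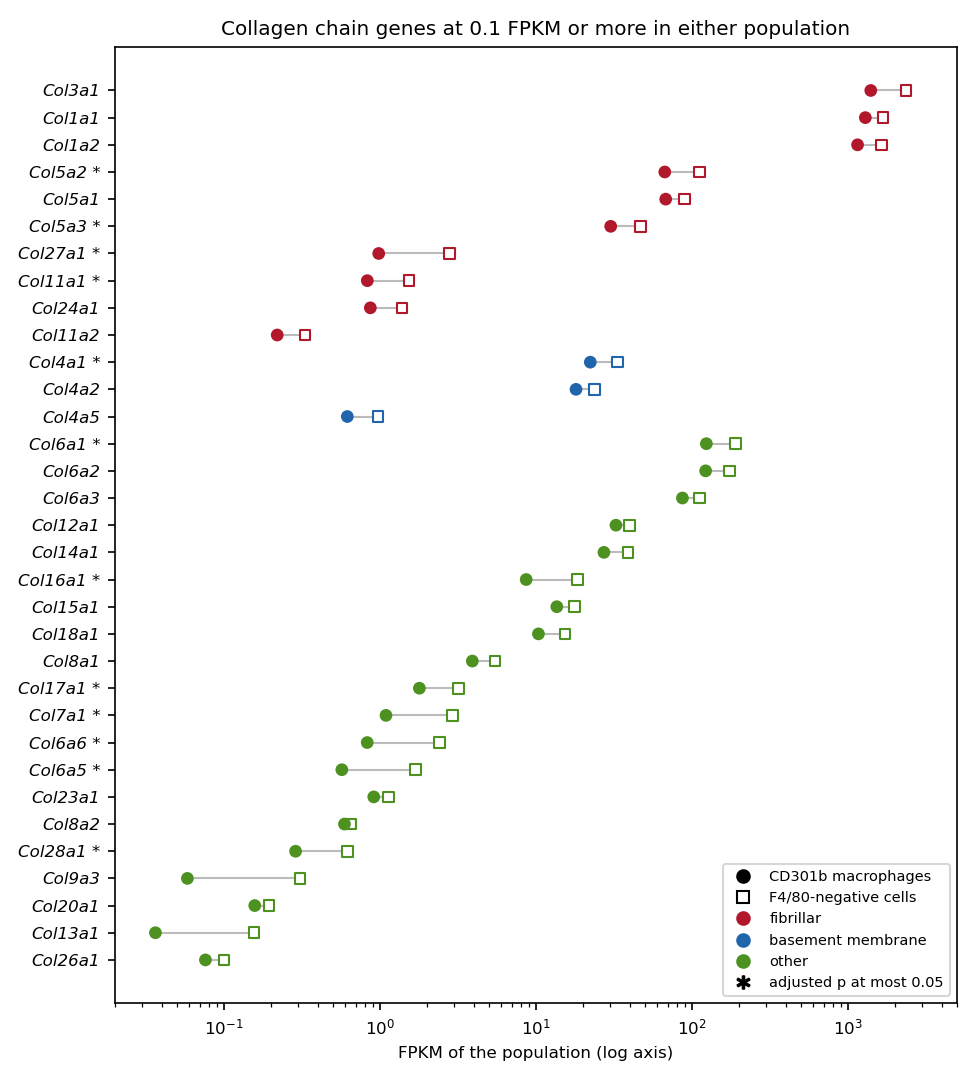
FPKM on a log axis of each collagen gene that reached 0.1 FPKM in either population, with filled circles for CD301b macrophages, open squares for F4/80-negative cells, colours for the 3 classes and a star for genes past the threshold. Every circle lies to the left of its square, and the 3 genes Col3a1, Col1a1 and Col1a2 stand apart at 1153 FPKM or more in both populations.

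The fibrillar class held most of the collagen RNA, and 4 of its 9 tested genes were lower, beside 6.20% of all tested genes. It summed to 4014 FPKM in CD301b macrophages and 5930.4 FPKM in F4/80-negative cells, which was 89.4% of all collagen FPKM in the macrophages and 89.7% in the F4/80-negative cells. The fibrillar share of collagen RNA was therefore nearly the same in both populations. Its median log2 fold was -0.47.

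Col3a1, the chain of type III collagen, which is laid down early in granulation tissue, was at 1401 FPKM in CD301b macrophages and 2356 FPKM in F4/80-negative cells. It was the 52nd most abundant gene in CD301b macrophages and the 13th in F4/80-negative cells. Col1a1, the alpha 1 chain of type I collagen, the main protein of dermis, was at 1293 FPKM in CD301b macrophages and 1676 FPKM in F4/80-negative cells. Col1a2, the alpha 2 chain that completes the type I trimer, was at 1153 FPKM in CD301b macrophages and 1644 FPKM in F4/80-negative cells. These 3 genes made up 85.6% of collagen FPKM in the macrophages and 85.8% in the F4/80-negative cells. None of them passed the test. Their adjusted p was 0.163 for Col3a1, 0.285 for Col1a1 and 0.157 for Col1a2, by Cuffdiff in the authors' deposited table. For Col3a1 and Col1a2 the unadjusted p-values in the authors' deposited table were 0.0409 and 0.0386.

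The chains of type V collagen, which is built into type I fibrils and limits their width, were lower in 2 of 3 cases. Col5a2 was at 67.0 FPKM in CD301b macrophages and 112 FPKM in F4/80-negative cells, 1.67-fold lower with an adjusted p of 0.00624 by Cuffdiff in the authors' deposited table. The size of this difference was close to that of Col3a1, which was 1.68-fold smaller in the macrophages without passing. Col5a3, a type V chain of more limited distribution, was at 30.2 FPKM in CD301b macrophages and 46.8 FPKM in F4/80-negative cells, 1.55-fold lower (adjusted p = 0.0186, by Cuffdiff in the authors' deposited table). Col5a1, the chain shared by type V trimers, was at 67.9 FPKM in CD301b macrophages and 89.4 FPKM in F4/80-negative cells and did not pass.

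The remaining fibrillar genes were at or under 2.78 FPKM in both populations. Col27a1, a fibrillar chain best known from cartilage, was at 0.984 FPKM in CD301b macrophages and 2.78 FPKM in F4/80-negative cells, and at 2.83-fold lower it had the largest fold of the class. Its adjusted p was 0.000999, the smallest that the p-values of the authors' deposited table allow. Col11a1, a type XI chain also best known from cartilage, was at 0.831 FPKM in CD301b macrophages and 1.54 FPKM in F4/80-negative cells and was lower (adjusted p = 0.00572, by Cuffdiff in the authors' deposited table). Col24a1, a fibrillar chain known from bone, was at 0.870 FPKM in CD301b macrophages and 1.39 FPKM in F4/80-negative cells and did not pass. Col11a2, another type XI chain, was at 0.220 FPKM in CD301b macrophages and 0.332 FPKM in F4/80-negative cells and was not tested. Col2a1, the chain of cartilage type II collagen, was at 0.0521 FPKM in CD301b macrophages and 0.0639 FPKM in F4/80-negative cells and was not tested either.

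Ratios between chains differed between the populations in either direction. Within type I, the ratio of Col1a1 to Col1a2 FPKM was 1.12 in CD301b macrophages and 1.02 in F4/80-negative cells. Between types I and III, which do not share a trimer, the ratio of Col1a1 to Col3a1 was 0.923 in CD301b macrophages and 0.711 in F4/80-negative cells, so type III RNA was smaller relative to type I RNA in the macrophages. Within type V, the ratio of Col5a2 to Col5a1 was 0.987 in CD301b macrophages and 1.25 in F4/80-negative cells, and that of Col5a1 to Col5a3 was 2.25 in CD301b macrophages and 1.91 in F4/80-negative cells. Within type VI, the ratio of Col6a1 to Col6a2 was 1.01 in CD301b macrophages and 1.10 in F4/80-negative cells, and that of Col6a1 to Col6a3 was 1.42 in CD301b macrophages and 1.71 in F4/80-negative cells. These ratios have no replicate error and were not tested.

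Promoter windows were examined because the type I chains are known to be transcribed through proximal CCAAT and GC boxes. RefSeq windows (GRCm38.p6) were available for 35 of the 44 genes, in 38 windows. Col1a1 and Col5a2 had none, so Col1a2 was the only type I chain examined. The 250 bases before each annotated start were searched on both strands for CCAAT (bound by NF-Y), GGGCGG (a GC box of the Sp1 family) and TATAA. The windows below are those of the abundant chains Col1a2 and Col3a1 and of 2 genes that were lower in CD301b macrophages, Col5a3 and Col16a1. They are written 5′ to 3′ on the gene's strand, with the motifs in capitals.
Col1a2, chr6:4505368-4505617, plus strand: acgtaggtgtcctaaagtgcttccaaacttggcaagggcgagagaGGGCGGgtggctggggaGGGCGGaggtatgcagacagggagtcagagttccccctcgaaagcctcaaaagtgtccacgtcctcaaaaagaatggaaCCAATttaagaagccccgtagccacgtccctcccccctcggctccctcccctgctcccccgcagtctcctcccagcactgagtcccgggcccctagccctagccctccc
Col3a1, chr1:45311288-45311537, plus strand: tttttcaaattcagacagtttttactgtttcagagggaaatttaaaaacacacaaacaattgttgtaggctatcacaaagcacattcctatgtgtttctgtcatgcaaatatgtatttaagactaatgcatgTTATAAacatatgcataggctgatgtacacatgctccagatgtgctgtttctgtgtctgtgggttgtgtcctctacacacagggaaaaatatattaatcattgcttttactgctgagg
Col5a3, chr9:20815068-20815317, minus strand: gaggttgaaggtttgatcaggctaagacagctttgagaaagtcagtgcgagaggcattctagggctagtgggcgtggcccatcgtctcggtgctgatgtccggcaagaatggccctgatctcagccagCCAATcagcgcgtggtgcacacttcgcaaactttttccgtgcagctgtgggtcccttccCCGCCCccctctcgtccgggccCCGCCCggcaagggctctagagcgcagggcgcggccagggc
Col16a1, chr4:130047590-130047839, plus strand: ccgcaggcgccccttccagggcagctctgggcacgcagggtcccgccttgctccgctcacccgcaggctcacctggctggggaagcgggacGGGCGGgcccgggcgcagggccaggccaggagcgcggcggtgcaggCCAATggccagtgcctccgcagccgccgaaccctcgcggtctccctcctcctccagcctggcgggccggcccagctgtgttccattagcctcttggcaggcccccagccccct

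Counted from the annotated start, CCAAT begins at -109 in Col1a2, -122 in Col5a3 and -113 in Col16a1. The Col3a1 window held neither CCAAT nor GGGCGG, and its 6 capitals are TATAA read on both strands, at -118 and -117. CCAAT was in 13 of the 38 collagen windows (34.2%) and in 33.8% of all 32851 windows. GGGCGG was in 57.9% of collagen windows and 32.7% of all windows, and TATAA in 18.4% of collagen windows and 22.8% of all windows. By call, CCAAT was found in 6 of the 11 lower genes with a window and in 4 of the 13 tested genes that did not pass. GGGCGG was found in 7 of the 11 lower genes and in 9 of the 13 that did not pass, and TATAA in 1 of the 11 and 1 of the 13. These matches describe letters only, and annotated starts may differ from those used in these cells.

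Basement membrane collagen was a small part of the total, and 1 of its 3 tested genes was lower in CD301b macrophages. Over all tested genes, 6.20% were lower. The 6 type IV genes summed to 41.1 FPKM in CD301b macrophages and 58.1 FPKM in F4/80-negative cells, 0.916% of collagen FPKM in the macrophages and 0.878% in the F4/80-negative cells. Their median log2 fold was -0.17, with 4 of the 6 genes under 1 FPKM in both populations.

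Col4a1, the alpha 1 chain of the type IV network found in almost all basement membranes, was at 22.3 FPKM in CD301b macrophages and 33.3 FPKM in F4/80-negative cells, 1.49-fold lower (adjusted p = 0.0365, by Cuffdiff in the authors' deposited table). Col4a2, its partner in the same trimer, was at 18.1 FPKM in CD301b macrophages and 23.7 FPKM in F4/80-negative cells and did not pass. The pair lies head to head on chromosome 8, Col4a1 at 11198423 to 11312889 and Col4a2 at 11312805 to 11449287 (RefSeq, GRCm38.p6), with 85 bases of overlap, and is known to share a promoter. A CCAAT begins at -32 before the annotated start of Col4a2. It lies inside the annotated Col4a1, so it is not upstream of both genes. The CCAAT before the annotated start of Col4a1 is a different one, at -145. The 30 bases around the CCAAT of Col4a2 are shown, with the motif in capitals.
Col4a2, chr8:11312761-11312790, plus strand: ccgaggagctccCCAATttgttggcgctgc

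The ratio of Col4a1 to Col4a2 was 1.23 in CD301b macrophages and 1.40 in F4/80-negative cells. How strand was treated in counting is not stated. In the GENCODE annotation, exons of the pair overlap by 22 bases of the 7464 exon bases of Col4a1. The loci of the counted transcripts of the pair do not overlap in the authors' deposited data. Col4a5, of the kidney, lung and skin type IV trimers, was at 0.619 FPKM in CD301b macrophages and 0.976 FPKM in F4/80-negative cells and did not pass. Col4a3, Col4a4 and Col4a6 were at or under 0.0664 FPKM in both populations and were not tested. Among 14 other basement membrane genes (laminin chains, nidogens, perlecan and agrin), 2 of the 13 tested were lower and none was higher. Over all tested genes 6.20% were lower and 11.0% higher, and these counts are too small to set apart from those shares. The lower genes were Agrn and Lama2. Agrn, agrin, was at 3.74 FPKM in CD301b macrophages and 5.81 FPKM in F4/80-negative cells. Lama2, laminin alpha 2, was at 2.66 FPKM in CD301b macrophages and 4.09 FPKM in F4/80-negative cells. No basement membrane partner was higher at the adjusted threshold of the Cuffdiff p-values. The most abundant, Nid1, nidogen 1, was at 29.1 FPKM in CD301b macrophages and 37.0 FPKM in F4/80-negative cells and did not pass.

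The other collagens included both abundant filament chains and rare epithelial ones, and 7 of 16 tested genes were lower in CD301b macrophages. Over all tested genes, 6.20% were lower. The 27 genes summed to 436 FPKM in CD301b macrophages and 625 FPKM in F4/80-negative cells, with a median log2 fold of -0.30. In 26 of the 27 the macrophage value was the smaller. The exception, Col10a1, the type X chain of growth plate cartilage, was at 0.0431 FPKM in CD301b macrophages and 0.0391 FPKM in F4/80-negative cells and was not tested.

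Type VI collagen, which forms beaded filaments around cells, gave 7.46% of collagen FPKM in CD301b macrophages and 7.26% in F4/80-negative cells together with the low Col26a1 and Col28a1. Col6a1 was at 124 FPKM in CD301b macrophages and 190.3 FPKM in F4/80-negative cells, 1.54-fold lower (adjusted p = 0.0239, by Cuffdiff in the authors' deposited table). Col6a2, which joins it in the trimer, was at 123 FPKM in CD301b macrophages and 174 FPKM in F4/80-negative cells, with an adjusted p of 0.0638 likewise by Cuffdiff in the authors' deposited table. Col6a3, the long chain of the same trimer, was at 87.0 FPKM in CD301b macrophages and 111 FPKM in F4/80-negative cells and did not pass. Its more abundant transcript carried 76.9% of its FPKM in the macrophages and 79.9% in F4/80-negative cells.

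The alternative type VI chains, which are thought to be able to stand in for Col6a3, were low and had larger folds. Col6a5 was at 0.571 FPKM in CD301b macrophages and 1.69 FPKM in F4/80-negative cells, 2.95-fold lower. Col6a6 was at 0.831 FPKM in CD301b macrophages and 2.41 FPKM in F4/80-negative cells, 2.90-fold lower. Both had the smallest possible adjusted p of 0.000999, by Cuffdiff in the authors' deposited table. Col6a4, their neighbour on chromosome 9, was at 0.0368 FPKM in CD301b macrophages and 0.0849 FPKM in F4/80-negative cells and was not tested. Col28a1, a type VI-like chain known from peripheral nerve, was at 0.288 FPKM in CD301b macrophages and 0.621 FPKM in F4/80-negative cells and was lower (adjusted p = 0.0321, by Cuffdiff in the authors' deposited table).

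Of the collagens that attach to fibril surfaces, Col16a1 was the one that passed. It was at 8.67 FPKM in CD301b macrophages and 18.4 FPKM in F4/80-negative cells, 2.13-fold lower with an adjusted p of 0.000999 by Cuffdiff in the authors' deposited table. Col12a1, a chain of fibrils under tension, was at 32.6 FPKM in CD301b macrophages and 39.99 FPKM in F4/80-negative cells, and Col14a1 was at 27.3 FPKM in CD301b macrophages and 39.1 FPKM in F4/80-negative cells. Neither passed, with adjusted p of 0.378 and 0.0742 likewise by Cuffdiff in the authors' deposited table. The remaining 6 genes of this kind (Col9a1, Col9a2, Col9a3, Col19a1, Col20a1 and Col22a1) were at or under 0.307 FPKM in both populations and were not tested. Col9a1 and Col9a2 were listed at 0 in CD301b macrophages.

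Collagens of the junction between epidermis and dermis were scarce, and the 2 best known of them were lower in CD301b macrophages. Col7a1, which forms the anchoring fibrils beneath the epidermis, was at 1.10 FPKM in CD301b macrophages and 2.94 FPKM in F4/80-negative cells, 2.68-fold lower (adjusted p = 0.000999, by Cuffdiff in the authors' deposited table). Col17a1, the transmembrane collagen of keratinocyte hemidesmosomes, was at 1.79 FPKM in CD301b macrophages and 3.19 FPKM in F4/80-negative cells, 1.78-fold lower (adjusted p = 0.0272, by Cuffdiff in the authors' deposited table). That p is of its main transcript alone, at 1.55 FPKM in CD301b macrophages and 3.16 FPKM in F4/80-negative cells. The other Col17a1 transcript went the other way, at 0.242 FPKM in CD301b macrophages and 0.0349 FPKM in F4/80-negative cells, and was not tested. Col23a1, another transmembrane collagen, was at 0.915 FPKM in CD301b macrophages and 1.14 FPKM in F4/80-negative cells and did not pass. The transmembrane collagens Col13a1 and Col25a1, and Col26a1, were at or under 0.156 FPKM in both populations and were not tested. Keratinocyte markers were detected beside them. All 11 had the smaller value in CD301b macrophages and none was at 0, and they summed to 187 FPKM in CD301b macrophages and 241 FPKM in F4/80-negative cells. Of these, Cdh1, E-cadherin, which Langerhans cells also express, was lower at 2.52 FPKM in CD301b macrophages and 9.19 FPKM in F4/80-negative cells. Krt14, the basal keratin, was at 61.7 FPKM in CD301b macrophages and 78.1 FPKM in F4/80-negative cells and did not pass. The part of keratinocyte RNA in the Col7a1 and Col17a1 values was not tested.

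The multiplexins Col15a1 and Col18a1 and the network chains Col8a1 and Col8a2 did not pass. Col15a1, which links fibrils to basement membranes, was at 13.6 FPKM in CD301b macrophages and 17.6 FPKM in F4/80-negative cells. Col18a1, whose C-terminal fragment is endostatin, was at 10.4 FPKM in CD301b macrophages and 15.4 FPKM in F4/80-negative cells. Col8a1, a network chain of vessel walls, was at 3.92 FPKM in CD301b macrophages and 5.47 FPKM in F4/80-negative cells. Their adjusted p-values were 0.239, 0.0696 and 0.110, by Cuffdiff in the authors' deposited table. Col8a2 had the closest pair of values among the tested collagens, at 0.594 FPKM in CD301b macrophages and 0.646 FPKM in F4/80-negative cells. Endothelial markers had the smaller value in CD301b macrophages in 8 of 8 cases, with sums of 70.6 FPKM in CD301b macrophages and 84.8 FPKM in F4/80-negative cells. None of the endothelial markers passed and none was at 0. Pericyte and smooth muscle markers summed to 62.3 FPKM in CD301b macrophages and 76.2 FPKM in F4/80-negative cells, with the smaller value in the macrophages in 6 of 7 cases, none past the threshold and none at 0. Their part in these collagen values was not tested.

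Folds reached higher values among scarce chains than among abundant ones. With limits set after the values were seen, the 16 genes at 10 FPKM or more in F4/80-negative cells ranged from 1.23-fold to 2.13-fold smaller in CD301b macrophages, and 5 of them passed. The 9 genes from 1 to 10 FPKM ranged from 1.25-fold to 2.95-fold smaller, and 6 of them passed. Over all tested genes at any level, 6.20% were lower. The share of all genes at each of these levels was not computed, so the counts that passed cannot be compared between levels. The 12 genes that passed held 5.75% of collagen FPKM in the macrophages and 6.29% in the F4/80-negative cells. The bulk of collagen RNA therefore lay in genes that did not pass the test. The 16 untested genes were at or under 0.332 FPKM in both populations, and 15 of them had the smaller value in CD301b macrophages.

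**Figure D2:**
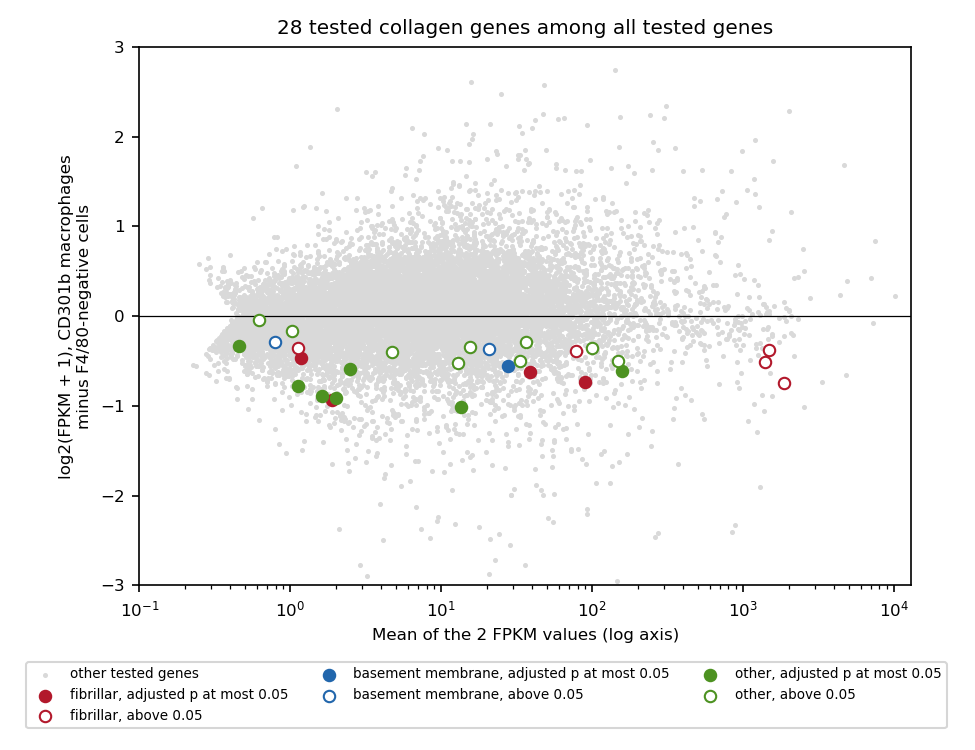
Difference in log2(FPKM + 1), CD301b macrophages minus F4/80-negative cells, against the mean FPKM of the 2 populations on a log axis, for the 28 tested collagen genes (coloured by class, filled where the adjusted p was at most 0.05) and all other tested genes in grey. All 28 collagen genes lie below 0, and the 3 most abundant are open circles. The 70 genes with a difference beyond 3 in size are not drawn.

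By summed FPKM the collagen difference (1.47-fold) was close in size to that of fibroblast markers. By median log2 fold the answer depended on scarce genes. The median was -0.35 for all 44 collagen genes, close to -0.37 for keratinocyte markers. It was -0.50 for the 28 tested collagen genes, close to that of fibroblast markers. The 16 untested genes had a median of -0.03, which the added 1 FPKM holds near 0. Those of endothelial markers and of pericyte and smooth muscle markers were -0.25 and -0.22. All 12 fibroblast markers had the smaller value in CD301b macrophages, 5 of them were lower by the test and none was at 0. They summed to 829 FPKM in CD301b macrophages and 1293 FPKM in F4/80-negative cells, a 1.56-fold smaller sum, and their median log2 fold was -0.51. The 5 that passed, where 6.20% of all tested genes were lower, were Dpp4, Dpt, Postn, Pi16 and Lum. Postn, periostin, a matrix protein of healing wounds, was at 282 FPKM in CD301b macrophages and 491 FPKM in F4/80-negative cells. Dpp4, a surface peptidase of some dermal fibroblasts that dendritic and T cells also express, had the largest fold, at 4.43 FPKM in CD301b macrophages and 11.0 FPKM in F4/80-negative cells. Dcn, decorin, a proteoglycan that binds collagen fibrils, was at 272 FPKM in CD301b macrophages and 389 FPKM in F4/80-negative cells and did not pass. Per unit of summed fibroblast marker FPKM, summed collagen FPKM was 5.42 in CD301b macrophages and 5.12 in F4/80-negative cells. The part of fibroblast RNA in the collagen values was not tested.

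Of 30 genes for making and crosslinking collagen, 28 were tested, 3 were lower, 1 was higher and 24 did not pass, beside 6.20% lower and 11.0% higher over all tested genes. Their median log2 fold was -0.29. The lower ones were Bmp1, the C-propeptide protease, at 34.0 FPKM in CD301b macrophages and 52.4 FPKM in F4/80-negative cells, P4ha3, a prolyl hydroxylase subunit, at 5.10 FPKM in CD301b macrophages and 8.43 FPKM in F4/80-negative cells, and Pcolce2, an enhancer of propeptide cleavage, at 1.68 FPKM in CD301b macrophages and 3.38 FPKM in F4/80-negative cells. The higher one was Plod1, lysyl hydroxylase 1, at 73.6 FPKM in CD301b macrophages and 42.3 FPKM in F4/80-negative cells. Serpinh1, the collagen chaperone HSP47, was at 209 FPKM in CD301b macrophages and 298 FPKM in F4/80-negative cells, a 1.43-fold smaller value that did not pass. Sparc, a collagen-binding matricellular protein, was at 931 FPKM in CD301b macrophages and 1303 FPKM in F4/80-negative cells and did not pass. P4hb, the widely used disulphide isomerase that also serves prolyl hydroxylase, was at 428 FPKM in CD301b macrophages and 429 FPKM in F4/80-negative cells.

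Of 11 tested collagen receptors, 2 were higher, 2 were lower and 7 did not pass, counts too small to set apart from the 11.0% higher and 6.20% lower over all tested genes. Mrc1, the mannose receptor, which takes up collagen fragments, was at 427 FPKM in CD301b macrophages and 117 FPKM in F4/80-negative cells, 3.64-fold higher. Lair1, the inhibitory collagen receptor of leukocytes, was at 27.2 FPKM in CD301b macrophages and 12.2 FPKM in F4/80-negative cells, 2.22-fold higher. Ddr1, a receptor tyrosine kinase for collagen, was lower, at 1.69 FPKM in CD301b macrophages and 5.59 FPKM in F4/80-negative cells. Oscar, a costimulatory collagen receptor of osteoclasts and myeloid cells, was lower, at 0.149 FPKM in CD301b macrophages and 2.24 FPKM in F4/80-negative cells. Among 7 collagen-degrading enzymes, 3 were lower (Ctsk, Mmp9 and Mmp2), none was higher and 4 did not pass. Over all tested genes 6.20% were lower and 11.0% higher, and the difference from these shares was not tested. Ctsk, the osteoclast protease cathepsin K, was at 79.8 FPKM in CD301b macrophages and 443 FPKM in F4/80-negative cells, 5.56-fold lower. Mmp9, a gelatinase of myeloid cells, was at 42.1 FPKM in CD301b macrophages and 119 FPKM in F4/80-negative cells, 2.84-fold lower. Mmp2, a gelatinase made largely by fibroblasts, was at 98.5 FPKM in CD301b macrophages and 179.6 FPKM in F4/80-negative cells, 1.82-fold lower. Mmp14, the membrane collagenase, was at 211 FPKM in CD301b macrophages and 256 FPKM in F4/80-negative cells and did not pass.

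**Figure D3:**
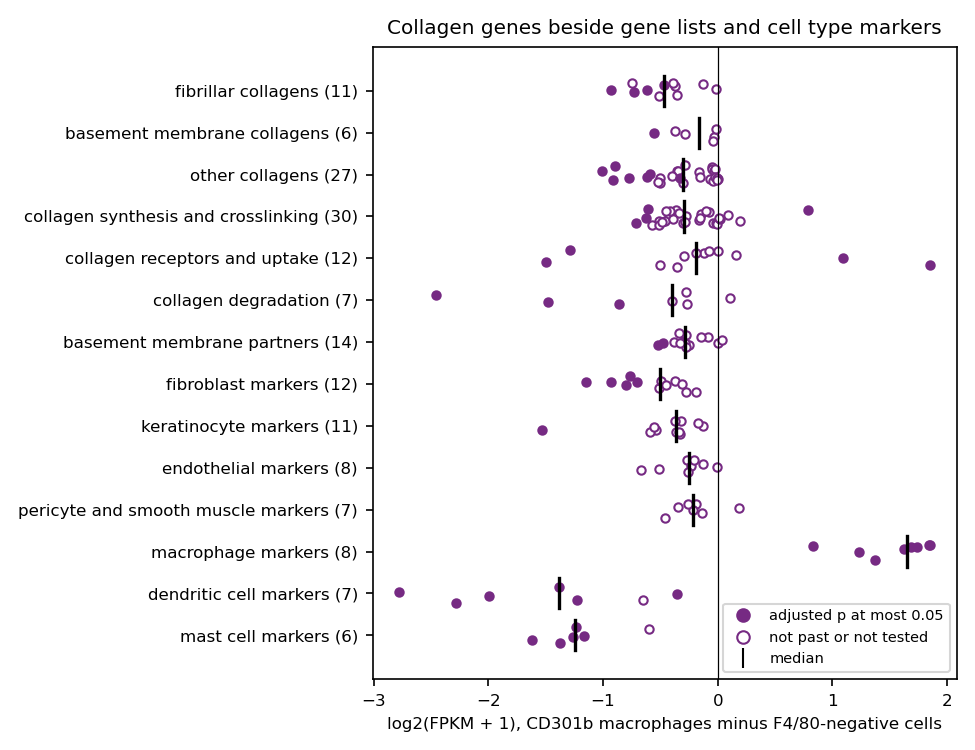
Difference in log2(FPKM + 1), CD301b macrophages minus F4/80-negative cells, for each gene of the collagen classes, of 4 collagen-related lists and of 7 cell type marker lists, with the number of genes in brackets, filled where the adjusted p was at most 0.05 and with the median as a bar. Collagen medians run from -0.47 to -0.17, beside -0.51 for fibroblast markers and 1.65 for macrophage markers. Medians are -0.37 for keratinocyte, -0.25 for endothelial and -0.22 for pericyte and smooth muscle markers.

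Dendritic cell and mast cell markers moved further in the same direction as the collagens. Of 7 dendritic cell markers, 6 were lower and none was at 0, with sums of 56.7 FPKM in CD301b macrophages and 230.1 FPKM in F4/80-negative cells. Of 6 mast cell markers, 5 were lower and none was at 0, with sums of 19.7 FPKM in CD301b macrophages and 56.2 FPKM in F4/80-negative cells. Over all tested genes, 6.20% were lower. The median log2 folds of the dendritic cell and mast cell markers were -1.38 and -1.25. Their part in the scarce collagens with larger folds was not tested. With each population scaled to the median of its genes, FPKM ratios shifted by 0.11 on the log2 scale, with the median gene the higher in CD301b macrophages, so relative to the median gene the collagen ratios were smaller by that amount. On the log2(FPKM + 1) scale the shift was less for scarce chains, and Col28a1 was at -0.37 with that scaling and -0.33 without it.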

How the data were processed

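mRNA libraries were made with an Illumina TruSeq protocol, 2 per population, per the labels' protocols. The submitters' processing notes list TopHat2 2.0.2, Cuffdiff 2.0.2 and mm9. The authors deposited 34535 transcripts with 1 FPKM per population and an unadjusted p-value, per the file headers. How a population's libraries were combined is not stated. Cuffdiff tested 16921 transcripts, and the deposited calls equalled a Benjamini-Hochberg adjustment at 0.05 over these in every case (2408 calls). The p-values cover at most the spread between these libraries, which may be technical, and it is not stated whether they cover it. Library depth is unknown, so no interval is given.

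Although the notes list mm9, the loci of all 54 collagen transcripts overlapped their RefSeq gene on GRCm38.p6 and 37 shared a boundary with it to the base, so printed positions are of GRCm38.p6, counted from 1. FPKM was summed by symbol (date-like symbols of 56 transcripts were restored by accession). Folds on a log2 scale had 1 FPKM added to each value, so those of scarce genes are understated. A gene's adjusted p is the smallest over its transcripts. In the GENCODE annotation, exons of 10 of the 44 genes overlap an exon on the other strand, at most 6.07% of exon bases (Col9a3). A count without strand could not separate these where the counted transcripts include them.

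The members and lists were chosen with earlier results of these data known. Collagen genes at 1 FPKM or more or past the threshold are given with both values. Of other lists, up to 6 called genes at 5 FPKM or more or the most abundant are named, and Krt14, Dcn, Serpinh1, Sparc, P4hb, Mmp14, Pcolce2, Oscar and Lama2 were added after their values were seen. Adjustment and calling were tested on simulated data. Python 3.11.15, pandas 2.3.3 and numpy 2.4.6 were used.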

Additional observations from a re-analysis of the deposited data

How the results depend on the processing

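The count of 12 lower collagen genes became 19 at an unadjusted p of 0.05 (adding Col1a2, Col3a1, Col6a2, Col8a1, Col14a1, Col18a1 and Col24a1; 12.6% of all tested genes were lower by that rule), stayed at 12 with the highest transcript of each gene and was 11 with transcripts at 1 FPKM or more, which left out Col28a1. The count of higher genes was 0 under each of these rules. With a pseudocount of 0.1 the median log2 folds were -0.62 for fibrillar, -0.35 for basement membrane and -0.43 for other genes; with genes at 1 FPKM or more they were -0.51, -0.46 and -0.51; with median scaling they were -0.53, -0.19 and -0.37. The ratios of summed FPKM, CD301b macrophages over F4/80-negative cells, were 0.677, 0.708 and 0.698. With median scaling they were 0.626, 0.655 and 0.646. With the highest transcript alone they were 0.709 for basement membrane and 0.691 for other genes. With types VII, XV and XVIII counted as basement membrane that ratio was 0.705. No direction changed in the 26 named collagen genes under a pseudocount of 0.1, median scaling or the highest transcript. A pseudocount cannot change a direction, and median scaling made each of these folds more negative, so neither could have reversed one. The highest transcript could have done so only in genes with several transcripts. No paired analysis was possible because the table gives 1 value per population, and for the same reason no library could be left out. Unknown depth limits what can be said of genes under 1 FPKM.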

Other observations

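Collagen genes formed 10 pairs of successive members within 1000000 bases of each other, and the level in CD301b macrophages as a percentage of that in F4/80-negative cells was close within some pairs and far apart in others. Col3a1 (chromosome 1, 45311538 to 45349706) and Col5a2 (45374331 to 45503282) are 24624 bases apart with no coding gene between them, and the level in CD301b macrophages was 59.5% and 59.8% of that in F4/80-negative cells. Col6a6 and Col6a5 on chromosome 9 are 27823 bases apart, at 34.5% and 33.8%. Col6a2 and Col6a1 on chromosome 10, 85161 bases apart, were at 70.5% and 65.1%, Col6a1 and Col18a1 at 65.1% and 67.5%, and Col4a1 and Col4a2 at 67.1% and 76.4%. The remaining pairs were Col6a5 and Col6a4 at 33.8% and 43.4%, Col4a6 and Col4a5 at 49.4% and 63.4%, and Col4a4 and Col4a3 at 59.8% and 75.1%. Col9a3 and Col20a1 were at 19.0% and 80.9%, and Col9a1, listed at 0 in CD301b macrophages, was beside Col19a1 at 73.0%. Each of these remaining pairs holds an untested gene under 1 FPKM in both populations, where a percentage is unreliable. These values were not tested.

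Adipocyte and skeletal muscle markers went the other way from the collagens. All 7 had the larger value in CD301b macrophages, with sums of 9.57 FPKM in CD301b macrophages and 5.25 FPKM in F4/80-negative cells. Only 4 of the 7 were tested and none of these passed. In both populations 6 of the 7 were under 1 FPKM, so their direction is weakly founded. Acta1 held most of the sums, at 6.56 FPKM in CD301b macrophages and 3.98 FPKM in F4/80-negative cells. Lep was listed at 0 in F4/80-negative cells. Schwann cell and melanocyte markers summed to 2.54 FPKM in CD301b macrophages and 3.46 FPKM in F4/80-negative cells. Of these 6 genes 3 were tested and none passed, 5 were under 1 FPKM in both populations and none was at 0. The macrophage value was the smaller in 5 and the larger in 1, Dct.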
